A study of Mus musculus with 6 samples.

Results

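Hox genes were represented by 43 of the 12488 probe sets of a mouse expression array, chosen as those whose annotated gene symbol starts with Hoxa, Hoxb, Hoxc or Hoxd and a digit. They cover 34 genes: 16 probe sets for 11 genes of the Hoxa cluster, 11 for 9 genes of Hoxb, 5 for 5 genes of Hoxc and 11 for 9 genes of Hoxd. One of the 34, Hoxa11os, is an RNA antisense to Hoxa11. The other 33 are among the 39 protein-coding Hox genes of the mouse gene table (assembly GRCm38.p6). The others were not analysed here. The samples were exponentially growing mouse embryonic stem cells of H1 triple-null line 1, of H1 triple-null line 2 and of a wild-type culture, with 2 arrays each, labelled experiment 1 and experiment 2. Both null lines lack functional genes for the linker histones H1c, H1d and H1e, whose current symbols are H1f2, H1f3 and H1f4. The null genotype is thus represented by 2 lines and wild type by 1 group. Whether a line's arrays stem from independent cultures is not in the labels, and p-values cover the scatter among these arrays alone, which may be technical.

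Hox genes encode homeodomain transcription factors that specify position along the head-to-tail axis of the embryo. They lie in 4 clusters, on chromosomes 6 (Hoxa), 11 (Hoxb), 15 (Hoxc) and 2 (Hoxd), in which genes of groups with low numbers are activated earlier and further anterior than genes of groups with high numbers. In embryonic stem cells the clusters are known as silent chromatin that carries Polycomb marks, and retinoic acid or Wnt signals open them during differentiation. Linker histones sit on the nucleosome at the entry and exit of the DNA and help to compact chromatin. The comparison of null with wild-type cells asks, for the Hox clusters, whether these silent genes had measurable RNA with and without the full set of linker histones.

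Hox genes gave little signal in both genotypes. Of the 43 Hox probe sets 9 were bright enough to be tested, and 0 of these were called in either null line or in their average. Of all probe sets tested, 0.134% were called in null line 1, 0.322% in null line 2 and 0.456% in the average. A count of 0 of 9 is thus near the share over all probe sets. Values are array signals on a linear scale (intensity units). A probe set was called above background on an array where its value exceeded that of the brightest of 19 control probe sets for bacterial and yeast genes, which lay between 9.1 and 17.2 over the arrays. By this rule 11 of the 43 Hox probe sets (25.6%) were above background on all 6 arrays, against 59.5% of all 12422 probe sets other than controls. A further 18 (41.9%) exceeded background on no array, against 22.7% of all probe sets, and 14 were above it on some arrays. The number above background was 18 and 19 on the arrays of null line 1, 15 and 14 on those of null line 2, and 22 and 17 on the wild-type arrays. The lowest counts, 14 and 15, were both on null line 2, and the counts of the null arrays (14 to 19) overlapped with those of the wild-type arrays (17 and 22). Each array had its own level: 12.0 and 9.1 in null line 1, 12.5 and 16.8 in null line 2, and 9.2 and 17.2 in wild type. The highest counts, 22 and 19, were on the arrays with the lowest levels, 9.2 and 9.1, so the counts do not rank the lines.

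A second set of controls gave a stricter view, which was chosen after the values were seen. On this array 15 control probe sets are built against the opposite strand of control genes, and the brightest of them reached between 43.1 and 55.7 intensity units. Only 2 Hox probe sets, 97747_r_at for Hoxa4 and 96418_r_at for Hoxb8, exceeded these controls on all 6 arrays, against 39.2% of all probe sets, and 37 of the 43 did so on no array. The letter r in both identifiers marks probe sets for which some of the manufacturer's rules for probe selection were dropped. What such probe sets detect was not tested, so their values below are those of probe sets annotated with Hoxa4, Hoxa6 or Hoxb8. None of the 39 Hox probe sets without that letter was above the opposite-strand controls on all 6 arrays.

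The clusters differed in how many members stood above background, as a description without a test. On all 6 arrays this held for 3 of 16 Hoxa probe sets, 6 of 11 Hoxb probe sets, 1 of 5 Hoxc probe sets and 1 of 11 Hoxd probe sets. By position, it held for 3 of 14 probe sets of paralog groups 1 to 4, for 7 of 15 of groups 5 to 8 and for 1 of 14 of groups 9 to 13. Background was exceeded on no array by 5, 4 and 9 probe sets of these groups. The posterior probe set above background on all arrays was that of Hoxb13, at the far end of its cluster. Hoxa9, a probe set of Hoxa11os, Hoxd9 and Hoxd10 exceeded background on 4, 3, 2 and 1 arrays. Hoxa10, Hoxa13, Hoxd11, Hoxd12 and Hoxd13, posterior genes that pattern limbs, tail and urogenital tract, had values between 0.3 and 3.9 on all arrays.

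**Figure D1:**
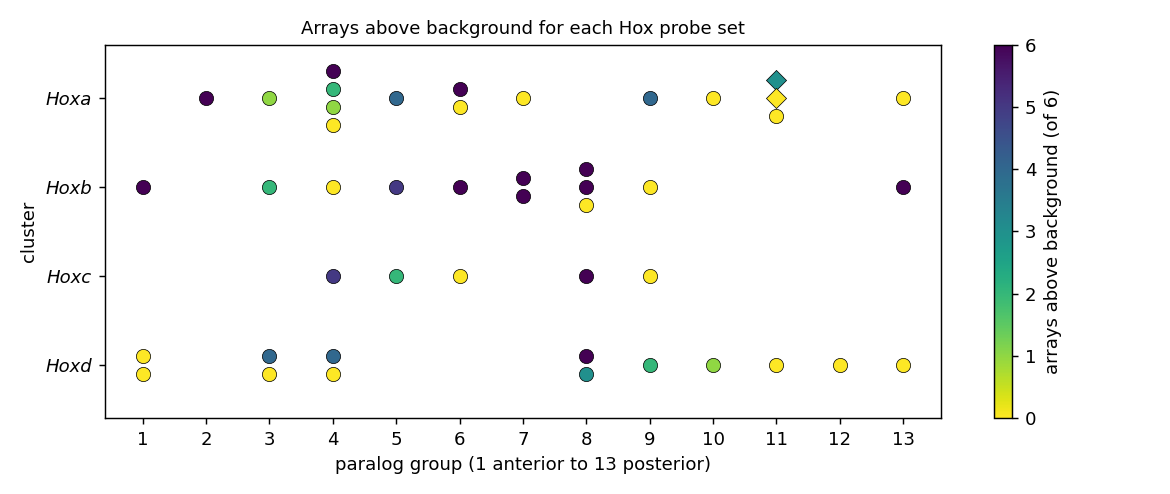
Each symbol is 1 Hox probe set, placed by its cluster (rows) and paralog group (columns), and its colour gives the number of arrays, of 6, on which it exceeded the brightest bacterial or yeast control; diamonds are Hoxa11os and a probe set annotated with a pair of genes is drawn at both. The darkest symbols, above background on all 6 arrays, lie mostly in Hoxb and in groups 5 to 8, and all but 1 of the probe sets of groups 9 to 13 are paler.

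The promoters of Hox genes on the array were read from RefSeq (build GRCm38.p6), as the 250 bases before the annotated gene start. The table held 25 such promoters for 23 of the 34 genes. They contained a median of 13 CG dinucleotides, the site of DNA methylation in mammals, with a range of 2 to 35, against a median of 6 for 32841 promoters of all genes, and 22 of the 25 were at or above that median. The 5 promoters of genes with a probe set above background on all arrays (Hoxa2, Hoxa6, Hoxb1, Hoxb8 and Hoxd8) held between 6 and 24, with a median of 7. Hoxa4, Hoxb6, Hoxb7, Hoxb13 and Hoxc8 also had such a probe set but no promoter in the table. The 11 promoters of genes at background on every array held between 2 and 35, with a median of 14. The 9 promoters of the remaining genes held between 3 and 35, with a median of 13. The sequence TATAAA, on either strand, was in 5 of the 25 (20%) and in 12.4% of all promoters. The sequences below, written 5′ to 3′ along the gene with CG in capitals, show 3 genes with a probe set above background on all arrays and, last, Hoxd13, which was at background on all of them. They hold 6 (Hoxa2), 12 (Hoxb8), 6 (Hoxd8) and 31 (Hoxd13) CG dinucleotides. These are examples and do not stand for their groups. Hoxa6, above background on all arrays and not shown, holds 24, and a promoter of Hoxd11, at background on all arrays, holds 2.
Hoxa2 (chr6:52164832-52165081, - strand): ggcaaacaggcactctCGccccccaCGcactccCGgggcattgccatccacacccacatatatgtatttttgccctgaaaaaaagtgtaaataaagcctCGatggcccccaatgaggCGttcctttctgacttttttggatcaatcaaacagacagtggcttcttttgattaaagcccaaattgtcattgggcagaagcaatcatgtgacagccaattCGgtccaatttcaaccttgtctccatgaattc
Hoxb8 (chr11:96281655-96281904, + strand): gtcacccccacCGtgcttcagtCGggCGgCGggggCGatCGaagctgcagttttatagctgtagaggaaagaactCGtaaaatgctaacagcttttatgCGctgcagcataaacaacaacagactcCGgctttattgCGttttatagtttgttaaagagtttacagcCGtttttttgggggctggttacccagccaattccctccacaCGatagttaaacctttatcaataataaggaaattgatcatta
Hoxd8 (chr2:74704365-74704614, + strand): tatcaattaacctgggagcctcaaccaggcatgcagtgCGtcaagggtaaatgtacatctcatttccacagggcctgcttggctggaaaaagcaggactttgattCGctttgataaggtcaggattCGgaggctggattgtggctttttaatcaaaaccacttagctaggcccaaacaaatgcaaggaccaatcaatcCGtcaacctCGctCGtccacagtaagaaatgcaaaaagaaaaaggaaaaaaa
Hoxd13 (chr2:74667975-74668224, + strand): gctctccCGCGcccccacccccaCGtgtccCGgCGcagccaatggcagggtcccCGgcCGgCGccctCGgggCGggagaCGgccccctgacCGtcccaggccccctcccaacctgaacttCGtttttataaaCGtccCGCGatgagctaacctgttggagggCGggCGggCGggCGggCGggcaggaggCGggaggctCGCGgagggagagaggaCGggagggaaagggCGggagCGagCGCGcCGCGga

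In all, 17 Hox probe sets were above background on both arrays of at least 1 line, and 9 of these were bright enough to be tested. Testing was limited to probe sets with an average signal of at least 20.9 intensity units, which is the 40th percentile of these averages. This kept 9 of 43 Hox probe sets (20.9%) and 60% of all probe sets. One linear model (limma) with a mean for each line was fitted to log2(value + 2.4) for all 7453 probe sets tested, and p-values were adjusted over all of them by the Benjamini-Hochberg method. Fold changes are on that scale and are too small for dim genes. In the average of the null lines against wild type, 0.456% of all probe sets were called at an adjusted p under 0.05, and 0 of the 9 Hox probe sets were. At an unadjusted p under 0.05 the counts were 0 of 9, against 12.7% of all probe sets. The median log2 change of the 9 was -0.0052, and of all probe sets tested -0.015. Of the 9, 4 had positive and 5 negative changes. The null and wild-type values overlapped in each of the 9, while for 12% of all probe sets tested every null array was below, and for 11% above, the wild-type arrays.

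**Figure D2:**
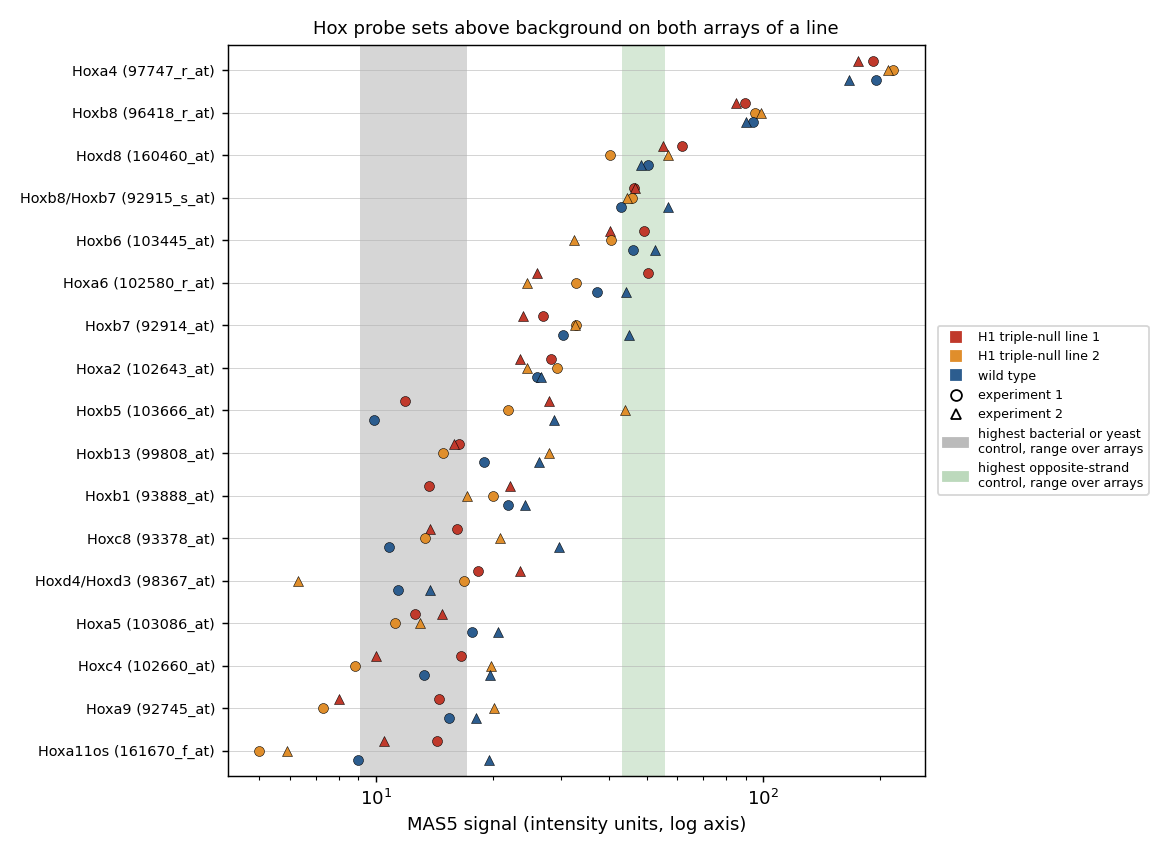
Signal (log axis) of the 17 Hox probe sets above background on both arrays of at least 1 line, with each array as a point, coloured by line and shaped by experiment. The grey band spans the brightest bacterial or yeast control of the arrays (9.1 to 17.2) and the green band the brightest opposite-strand control (43.1 to 55.7); 2 probe sets lie to the right of both bands on every array, and null and wild-type points overlap in all rows but that of Hoxa5.

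Of the anterior genes, Hoxa2, which specifies the second pharyngeal arch and hindbrain segments, was measured at 28.3 and 23.5 intensity units in null line 1, 29.3 and 24.5 in null line 2, and 26.1 and 26.7 in wild type. The wild-type values lay inside the range of the null values, and the mean was 26.4 in both genotypes. The log2 change was -0.0052 ± 0.13 (SE, limma adjusted p = 0.992), with a 95% interval of 0.80 to 1.24-fold.

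Hoxa4, a gene of the neck and anterior trunk, had 4 probe sets. One of them, 97747_r_at, read 191.6 and 175.0 in null line 1, 216.1 and 209.3 in null line 2, and 195.0 and 166.1 in wild type. Null line 2 was above both wild-type arrays, whereas null line 1 lay between them. The change of the null average was 0.13 ± 0.12 (SE, limma adjusted p = 0.692), with an interval of 0.90 to 1.34-fold. The other Hoxa4 probe sets did not show such a signal. Probe set 97746_f_at read between 0.6 and 5.0 and was at background on every array. Probe set 162402_r_at lay between 6.4 and 9.9 on the null arrays, against 12.0 and 12.3 on the wild-type arrays, and was above background on 1 array. Probe set 97745_at lay between 8.0 and 10.4 on all arrays but the experiment 1 array of null line 1, where it read 23.5. Levels of different probe sets cannot be set against each other, but by the same rule 1 probe set of Hoxa4 was above background on all arrays, 1 on none and the others on 1 or 2.

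The Hoxb cluster held 5 of the 9 probe sets tested, all for the neighbouring genes Hoxb5 to Hoxb8 of the middle of the cluster, which are active in the neural tube and trunk mesoderm of the embryo. Hoxb6 was measured at 49.1 and 40.2 in null line 1, 40.3 and 32.5 in null line 2, and 46.2 and 52.4 in wild type. Both arrays of null line 2 lay below the wild-type values, while 1 array of null line 1 lay between them. The log2 change was -0.28 ± 0.15 (SE, limma adjusted p = 0.486), with an interval of 0.64 to 1.05-fold. Hoxb7 read 27.0 and 24.0 in null line 1, 32.9 and 32.7 in null line 2, and 30.3 and 44.9 in wild type. Here null line 1 lay below both wild-type arrays and null line 2 between them. The change was -0.33 ± 0.17 (SE, limma adjusted p = 0.478), with an interval of 0.60 to 1.06-fold. It rested on the experiment 2 array of wild type: the change was -0.062 without that array and -0.59 without the experiment 1 array, and -0.022 within experiment 1 and -0.64 within experiment 2. Within the experiments Hoxb6 differed by -0.052 and -0.51.

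Of the 9 probe sets tested, one for Hoxb8 had the narrowest range. Probe set 96418_r_at read 89.6 and 85.2 in null line 1, 95.4 and 98.5 in null line 2, and 93.8 and 90.0 in wild type, so that its highest value was 1.16 times its lowest. The change was 0.0023 ± 0.10 (SE, limma adjusted p = 0.996), with an interval of 0.84 to 1.19-fold. Probe set 92915_s_at, annotated with both Hoxb8 and Hoxb7, read 46.4 and 46.5 in null line 1, 45.8 and 44.5 in null line 2, and 43.0 and 56.7 in wild type. The wild-type arrays enclosed all null values (log2 change -0.10 ± 0.14, SE, limma adjusted p = 0.807). The last Hoxb8 probe set, 96417_s_at, lay between 1.5 and 6.9 and was at background on every array.

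Hoxb5 differed between the experiments in every line. It read 11.9 and 28.0 in experiments 1 and 2 in null line 1, 21.9 and 43.9 in null line 2, and 9.9 and 28.8 in wild type. The experiment 2 array was the higher in all 3 lines, and the experiment 1 array of null line 1 was at background. The log2 change of the null average was 0.43 ± 0.49 (SE, limma adjusted p = 0.770), with an interval of 0.59 to 3.09-fold. Within experiment 1 the change was 0.60 and within experiment 2 it was 0.27, with adjusted p = 0.755 and 0.985 by limma. It was -0.24 without the experiment 1 array of wild type, and 1.10 without the experiment 2 array. Over all members, 6 of 43 Hox probe sets (14%) were higher in experiment 2 in all 3 lines, against 14.5% of all probe sets, and 4 (9.3%) were lower, against 11.8%.

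Hoxa6, a gene of the thoracic region, had 1 probe set on either side of the background. Probe set 102580_r_at read 50.3 and 26.0 in null line 1, 32.9 and 24.6 in null line 2, and 37.2 and 44.3 in wild type, whereas 102579_f_at lay between 1.1 and 2.8. Null line 2 was below both wild-type arrays and null line 1 spanned them (log2 change -0.32 ± 0.27, SE, limma adjusted p = 0.658). The change was 0.12 within experiment 1 and -0.75 within experiment 2. Hoxd8, which is active in the trunk, was the single Hoxd gene tested. Probe set 160460_at read 61.6 and 55.0 in null line 1, 40.2 and 56.6 in null line 2, and 50.4 and 48.2 in wild type. The wild-type values lay inside the null range (log2 change 0.093 ± 0.16, SE, limma adjusted p = 0.847). Its other probe set, 93221_at, lay between 5.4 and 16.3 on the null arrays, against 17.2 and 15.5 in wild type, and was above background on 3 arrays.

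**Figure D3:**
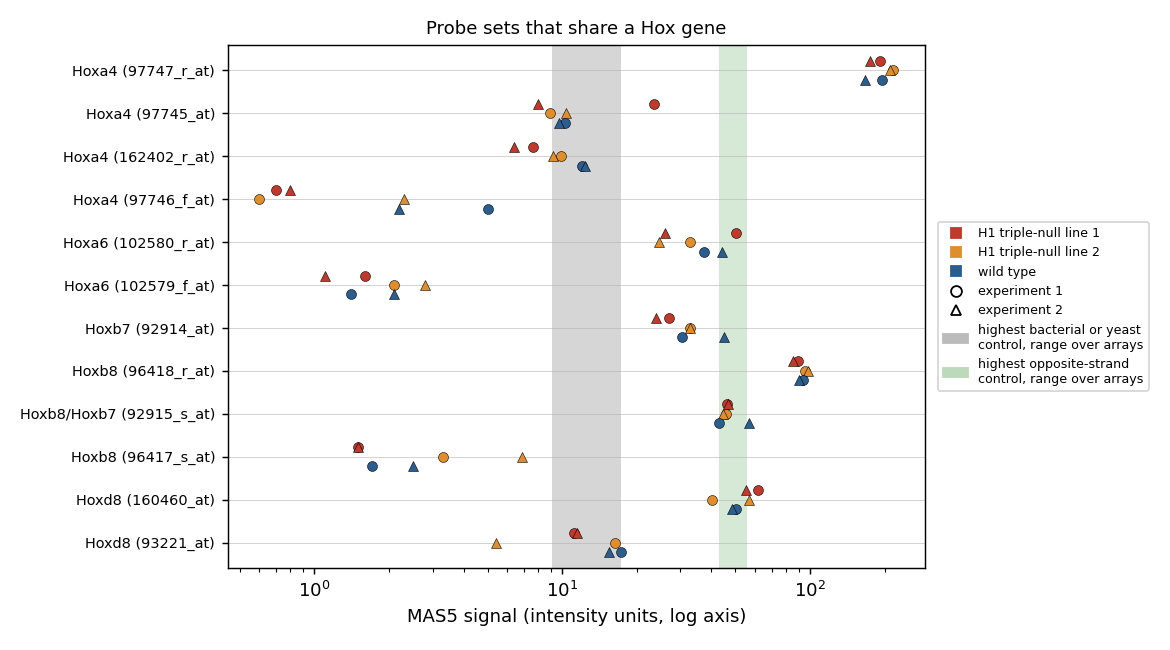
Signal (log axis) on each array of 12 probe sets that share Hoxa4, Hoxa6, Hoxb7, Hoxb8 or Hoxd8, with colours for lines, shapes for experiments and bands for the controls. For Hoxa4, Hoxa6 and Hoxb8, 1 probe set lies right of the grey background band on every array and another lies left of the band on every array.

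Of the 34 genes, 9 had more than 1 probe set. For 3 of these 9, Hoxa4, Hoxa6 and Hoxb8, a probe set above background on all arrays stood beside one at background on all arrays. In each of the 3 the probe set of that gene alone that was above background carried the letter r. The other Hoxa4 and Hoxa6 probe sets were above background on at most 2 arrays, whereas for Hoxb8 the probe set shared with Hoxb7 was above it on all 6. For Hoxb7 both probe sets were above background, though 1 of them is shared with Hoxb8, and for Hoxd1 both were at background.

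The remaining 8 probe sets above background on both arrays of a line were too dim to be tested. Hoxb1, the marker of the fourth hindbrain segment, read 13.7 and 22.2 in null line 1, 20.1 and 17.2 in null line 2, and 21.9 and 24.2 in wild type, above background on all 6 arrays. The groups overlapped by a single null array. Hoxb13 read 16.4 and 15.9 in null line 1, 14.9 and 28.0 in null line 2, and 19.0 and 26.4 in wild type. Hoxc8 read 16.2 and 13.8 in null line 1, 13.4 and 20.9 in null line 2, and 10.8 and 29.7 in wild type, where the 2 wild-type arrays enclosed all null values. Hoxb13, Hoxc8 and Hoxb1 were above background on all 6 arrays, and the genes that follow on 3 to 5 of them. Hoxc4 read 16.6 and 10 in null line 1, 8.8 and 19.8 in null line 2, and 13.3 and 19.7 in wild type. Hoxa9, a gene also known in blood progenitors, read 14.5 and 8.0 in null line 1, 7.3 and 20.2 in null line 2, and 15.4 and 18.1 in wild type. For these 2 genes 1 array of null line 2 was the highest of all. Probe set 161670_f_at for Hoxa11os read 14.4 and 10.5 in null line 1, 5.0 and 5.9 in null line 2, and 9.0 and 19.6 in wild type. Probe set 98367_at, annotated with both Hoxd4 and Hoxd3, read 18.3 and 23.6 in null line 1, 16.9 and 6.3 in null line 2, and 11.4 and 13.8 in wild type. The groups overlapped in each of these genes.

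Hoxa5, which patterns the neck vertebrae and the lung, was the single one of the 17 whose groups did not overlap. It read 12.6 and 14.8 in null line 1, 11.2 and 13 in null line 2, and 17.7 and 20.7 in wild type. Both wild-type arrays were above background, and so were both arrays of null line 1, while null line 2 was at background on both. Over all 43 Hox probe sets, the 4 null arrays lay below both wild-type arrays for 4 (9.3%) and above them for 0, against 10.4% and 8.17% of all probe sets. Besides Hoxa5 these were 162402_r_at for Hoxa4, Hoxa7 (2.2 to 3.5 on the null arrays, against 3.7 and 3.7 in wild type) and Hoxc6 (1.0 to 4.8, against 6.1 and 5.6), of which the last 2 were at background on every array. All 4 were among the 34 Hox probe sets below the filter. Of all probe sets below it, 7.97% had every null array below, and 3.96% above, the wild-type arrays. When all 12422 probe sets were fitted without the filter, Hoxa5 differed by -0.50 ± 0.15 on the log2 scale (SE, limma adjusted p = 0.452). In that fit 0 of the 43 were called, against 0.0644% of all probe sets, and 4 (9.3%) had an unadjusted p under 0.05, all lower, against 8.55% of all probe sets. The smallest adjusted p among the 43 was 0.431, and 27 had negative and 16 positive changes (6894 and 5528 of all probe sets), with a median of -0.13 against -0.034 for all probe sets. Most of these values come from probe sets that were not above background on all arrays.

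The other 26 probe sets were above background on both arrays of no line, and 18 of them on no array. They lay between 0.3 and 28.3 intensity units. The highest value was that of Hoxd9 on the experiment 2 array of wild type, where the 5 other arrays lay between 6.3 and 15.3. Hoxd10 was above background on 1 array, at 17.6 on the experiment 2 array of null line 1, with 4.5, 6.0 and 15.6 on the other null arrays, against 7.4 and 6.5 in wild type. Hoxa3 and Hoxb3, anterior genes of the pharynx and hindbrain, were above background on 1 and 2 arrays.

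The null lines were also set against wild type one at a time, with the same wild-type arrays in both comparisons. In null line 1, 0 of the 9 Hox probe sets were called by limma, against 0.134% of all probe sets, and 1 had an unadjusted p under 0.05, against 9.5%. That was Hoxb7, at -0.50 ± 0.20 (SE, adjusted p = 0.504), 0.51 to 0.98-fold. In null line 2, 0 of 9 were called, against 0.322%, and 1 had an unadjusted p under 0.05, against 14.1%. That was Hoxb6, at -0.42 ± 0.17 (SE, limma adjusted p = 0.347), 0.562 to 0.995-fold. Median log2 changes of the 9 were -0.071 in line 1 and -0.044 in line 2, against -0.014 and -0.011 for all probe sets. In null line 1 against null line 2, 0 of the 9 were called by limma, against 0.0268% of all probe sets, and 0 had an unadjusted p under 0.05, against 7.54%.

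**Figure D4:**
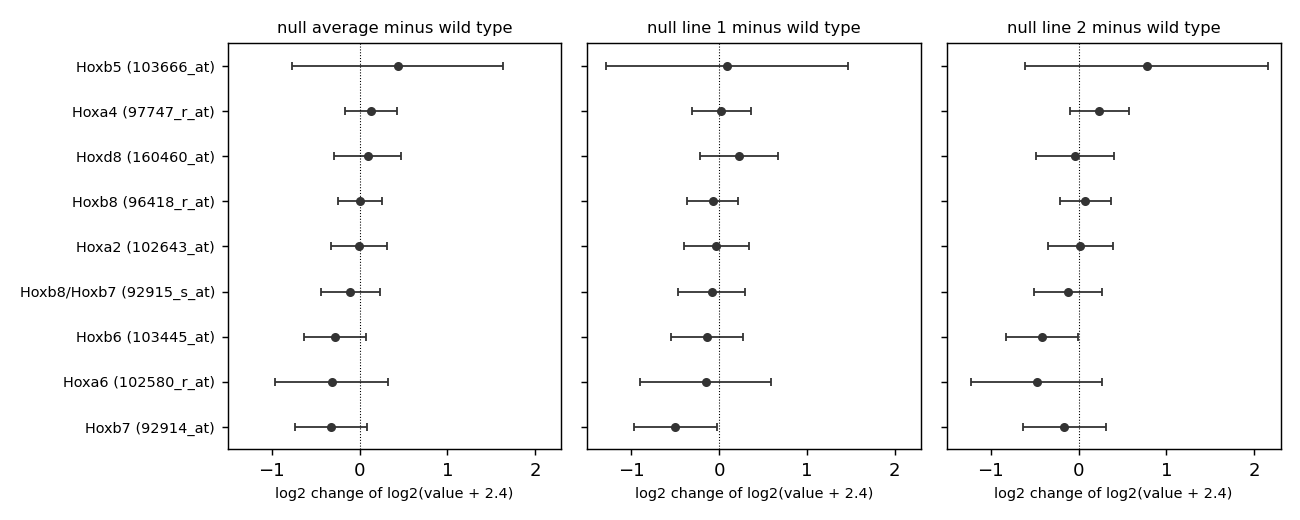
Log2 change of the 9 Hox probe sets tested, with 95% intervals, for the average of the null lines, null line 1 and null line 2, each against wild type; points right of the dotted line are higher in null cells. The intervals include 0 for all 9 in the average, for all but Hoxb7 in line 1 and for all but Hoxb6 in line 2, and the widest are those of Hoxb5.

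The intervals describe these signals on the log2(value + 2.4) scale and do not bound a change in RNA, since 7 of the 9 did not exceed the opposite-strand controls on all arrays. In the null average the upper limit was under 2-fold for 8 of the 9 Hox probe sets and the lower limit above 0.5-fold for all 9. Without Hoxb5, the limits over the other 8 ran from 0.51 to 1.39-fold. In null line 1 the limits over all 9 ran from 0.41 to 2.77-fold, and in null line 2 from 0.43 to 4.46-fold, with 8 of 9 lower limits above 0.5-fold in each. A two-sided permutation test of 4 arrays with 2 has 0.0667 as its smallest possible p, and each adjusted p therefore rests on the model.

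Among genes set beside the Hox clusters, the targeted H1f2 fell to 12.5 ± 1.51 (SD, n = 4) in null cells, against 69.1 ± 1.27 (SD, n = 2) in wild type (limma adjusted p = 0.00119). On 2 of the 4 null arrays it was at background. H1f3 and H1f4 were at background on all arrays and check nothing. Hox cofactors, the Pbx, Meis and Pknox proteins that bind DNA together with Hox proteins, had 6 genes on the array. Of these, 3 were tested and 0 were called, against 0.456% of all probe sets tested. Meis1 and Meis2 were at background on all arrays. Pbx2 measured 41.9 in null cells and 56.1 in wild type (log2 change -0.37, limma adjusted p = 0.449). Of 7 caudal, ParaHox and Evx genes, relatives or neighbours of the Hox clusters, Cdx2, Cdx4 and Pdx1 were at background on all arrays and 2 were tested. Cdx1, a caudal factor that activates Hox genes, read 24.5 and 28.4 in null line 1, 19.7 and 11.3 in null line 2, and 31.9 and 31.8 in wild type. All null values lay below wild type, which held for 12% of all probe sets tested, and the log2 change was -0.61 (limma adjusted p = 0.302). The Cdx1 value of 11.3 was at background on its array.

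Of 17 Polycomb genes tested, whose products keep Hox clusters repressed, 0 were called, against 0.456% of all probe sets tested. They had 10 positive and 7 negative values and a median of 0.045. Phc2, a subunit of Polycomb repressive complex 1, measured 41.4 in null cells and 56 in wild type (-0.43, limma adjusted p = 0.274). Phc1, another subunit of that complex, measured 522.6 in null cells and 419.9 in wild type (0.31, limma adjusted p = 0.418). Mtf2, also on this list, measured 342.65 in null cells and 276.45 in wild type (0.31, limma adjusted p = 0.407). All null values lay below wild type for Phc2, as for 12% of all probe sets tested. They lay above it for Phc1 and Mtf2, as for 11%. Of 11 Trithorax and other activator genes tested, 0 were called, against the same 0.456%. They had 7 positive and 4 negative values and a median of 0.088. Rarg, a retinoic acid receptor, measured 58.8 and 64.1 in null line 1, 46.6 and 13.6 in null line 2, and 102.2 and 65.6 in wild type (-0.997, limma adjusted p = 0.422). All null values lay below wild type, as for 12% of all probe sets tested, though 64.1 was close to the wild-type 65.6. The value of 13.6 was at background on its array, so the size of this change leans on that array. Ctcf, also on this list, measured 205 in null cells and 175.4 in wild type (0.22, limma adjusted p = 0.505). Kmt2a, a histone methyltransferase that maintains Hox expression, measured 83.4 in null cells and 97.1 in wild type (-0.21, limma adjusted p = 0.521).

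Most of the flanking genes looked at were above background. A list of flanking genes was chosen by name and kept to those within 5 protein-coding genes of a cluster, without holding every such gene. Of its members on the array, 5 of 6 near Hoxa, 5 of 5 near Hoxb, 3 of 4 near Hoxc and 3 of 4 near Hoxd were above background on all arrays. Those not above background on all of them were Evx1, Nfe2 and Evx2. Each flanking gene was counted by its probe set with the highest mean, but each Hox gene by all its probe sets. These counts are thus not like for like with those of the Hox clusters or with the 59.5% of all probe sets. Of the 16 tested, 0 were called, against 0.456% of all probe sets tested. The medians were -0.015, 0.23, -0.18 and 0.066 for the 4 clusters. Next to Hoxa, Skap2, an adaptor protein of immune cell signalling, measured 166.9 in null cells and 201.7 in wild type (-0.27, limma adjusted p = 0.365). Next to Hoxb, Calcoco2, an autophagy receptor, measured 70.2 in null cells and 50.3 in wild type (0.46, limma adjusted p = 0.250). Next to Hoxd, Mtx2, a mitochondrial import protein, measured 178.6 in null cells and 144.6 in wild type (0.29, limma adjusted p = 0.351). All null values lay below wild type for Skap2, Cbx5 and Hnrnpa1, as for 12% of all probe sets tested. They lay above it for Calcoco2 and Mtx2, as for 11%. In the other flanking genes tested the groups overlapped.

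All 15 embryonic stem cell markers were above background on all arrays, and Pou5f1, a defining one, measured 1666 in null cells and 1532 in wild type. Their summed level was 9944.5 to 10806.7 on the null arrays, against 9086.4 to 9225.8 on the wild-type arrays, with 11 positive and 4 negative values and a median of 0.28. One of the 15, Fbxo15, was called higher (log2 change 1.05, limma adjusted p = 0.0449), where 0.456% of all probe sets tested were called. Of other cell types that could be present and that use Hox genes, fibroblasts of feeder layers had 12 of 23 markers above background on all arrays. Prrx1 and Cdh11 were at background on all of them, and Col1a1 measured 159.7 in null cells and 158.4 in wild type. The summed level of the 23 was 2502 to 2773 on the null arrays, against 3215 to 3315 on the wild-type arrays, and 0 of 12 tested were called (10 negative, median -0.21). Among the 12, the contractile genes Tagln (1032 in null cells and 1319 in wild type) and Acta2 (345.2 in null cells and 560.7 in wild type) had the largest differences in signal. On the log2 scale the order differed: Igfbp4 changed by -0.84, Acta2 by -0.71, Timp3 by -0.66 and Tagln by -0.36. The collagen gene Col1a2 measured 238.5 in null cells and 219.3 in wild type. For 14 mesoderm and primitive streak markers the sums were 387.2 to 432.5 on null arrays, against 511.8 to 561.9 on wild-type arrays, with Gsc, Mesp1 and Foxf1 at background. Of 9 tested 0 were called, with 8 negative values and a median of -0.29. For 13 neuroectoderm markers they were 1188 to 1480 on null arrays, against 1007 to 1245 on wild-type arrays, with Neurog1, Map2 and Zic1 at background. Of 6 tested 0 were called, with 6 positive values and a median of 0.19. All sums include the members at background. The part of such cells in the Hox signal was not tested, and in bulk samples fewer cells of a type and less RNA per cell cannot be told apart.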

How the data were processed

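RNA of mouse embryonic stem cells was hybridised to 6 arrays, 2 for each of H1 triple-null line 1, H1 triple-null line 2 and wild type. The deposited values are intensities on a linear scale, with a single value for a probe set on an array. Per the submitters' processing notes the tool was MAS5, of a version not given in these sources. The 2% trimmed mean of every array was close to 100, so the scaling was kept, and median signals lay between 34.2 and 39.8.

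Gene names are those of the platform annotation, and all 43 Hox probe sets matched current mouse genes (GRCm38.p6). Of the 12422 other than the 66 controls, the annotation names 1 gene for 10833, several genes for 396 and no gene for 1193. As pseudocount 2.4, the 10th percentile of the signals, was added before log2. The linear model was run on all 6 arrays with lmFit and eBayes of limma 3.58.1 under R 4.3.3, and had 3 residual and 3.2 prior degrees of freedom, and was tested on simulated data. Figures used matplotlib 3.10.9 in Python 3.11.15. For other genes the probe set with the highest mean stands for the gene.

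Members and lists were chosen with earlier results of these data known. Each Hox probe set above background on both arrays of a line was described with all its values, and from other lists up to 3 genes with the smallest p could be named; genes named as at background or as cell type landmarks (Pou5f1, Col1a1, Col1a2, Tagln) were chosen after their values were seen where they fall outside that rule. Alternatives changed the pseudocount, filter, normalization, spread model, grouping, experiment block, arrays and background level.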

Additional observations from a re-analysis of the deposited data

Results flagged for a closer look

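Hoxb13 (99808_at) read 28 on the experiment 2 array of null line 2, far from the other 3 null arrays at 14.9, 15.9 and 16.4. The wild-type arrays read 19.0 and 26.4. That null array also had a brighter background control (16.8) than the other 3 null arrays (9.1 to 12.5); its part in the value was not tested. Of the 17 Hox probe sets examined in this way over the 4 null arrays this was the single one. The gap was judged by Dixon's 95% critical value, which chance exceeds in about 1 in 20 groups.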

How the results depend on the processing

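The count of Hox probe sets called stayed at 0 in the null average, in each null line and between the null lines in every alternative run, with adjusted p for the 9 tested probe sets in the null average at 0.282 or above. The log2 differences of experiment 2 from experiment 1 correlated by 0.054 to 0.095 between lines over the probe sets tested, too little to pair arrays. With the experiment as a replicate block the count was 0 in all 4 comparisons. Every line has 1 array in each experiment, so the block cannot move a log2 change, and the median stays at -0.0052 by design. It alters the SE alone: Hoxb5 was at 0.43 ± 0.13 (SE, limma unadjusted p = 0.0209, adjusted p = 0.295). This made the count at an unadjusted p under 0.05 1 of 9 in the null average, against 0 of 9 without the block. Over all probe sets the block gave 14 calls in the null average, against 34 without it. Calls over all probe sets in the null average also numbered 8 without the filter, 54 with log2(value + 16), 66 with the filter at the 60th percentile, 101 with an intensity trend, 0 within either experiment, and 7 to 13 without 1 array.

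Directions of small changes turned. Within experiment 1 the log2 change was 0.12 for Hoxa6, 0.13 for Hoxa2, -0.016 for Hoxd8, 0.095 for the probe set of Hoxb8 and Hoxb7, and -0.020 for Hoxb8. Hoxa2 was at 0.079 after quantile normalization. When 1 array was left out, the change ranged from -0.066 to 0.056 for Hoxa2, from -0.24 to 1.10 for Hoxb5, from -0.025 to 0.21 for Hoxd8, from -0.29 to 0.086 for the probe set of Hoxb8 and Hoxb7, and from -0.027 to 0.031 for Hoxb8. It ranged from -0.54 to -0.092 for Hoxa6, from -0.37 to -0.19 for Hoxb6, from -0.59 to -0.062 for Hoxb7 and from 0.017 to 0.25 for Hoxa4. The median over the 9 ranged from -0.24, without the experiment 1 array of wild type, to 0.020 when 1 array was left out, and was 0.061 within experiment 1, -0.14 within experiment 2 and 0.038 after quantile normalization. The causes were not tested.

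The number of Hox probe sets above background depended on the level chosen. In the order null line 1, null line 2 and wild type, experiments 1 and 2 of each, it was 18, 19, 15, 14, 22 and 17 with the brightest bacterial or yeast control. It was 37, 31, 32, 30, 32 and 28 with the median of these controls, and 8, 11, 8, 5, 10 and 7 at 2 times the brightest. With the brightest opposite-strand control, a level chosen after seeing the data, it was 6, 3, 3, 3, 2 and 4. Quantile normalization keeps the order of values within an array, so it could not change these counts and does not test them. Low signal limits what can be said: 34 of 43 Hox probe sets were too dim to be tested.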
